A study of Mus musculus with 9 samples.

Results

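The integrated stress response genes read here are 10 genes, Atf4, Atf5, Ddit3, Atf3, Trib3, Ppp1r15a, Ddit4, Sesn2, Asns and Chac1. They were chosen by name from general knowledge of the ATF4 programme, with earlier results of these data known. They are 10 of 55487 gene identifiers in the deposited tables. Each was found under its GENCODE M21 symbol, and 7 of the 10 passed the filter on low counts that left 13043 genes for testing. The 3 that did not pass were Asns, Chac1 and Atf3.

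All cells were naive CD4+ T cells, helper T cells that have not met antigen, from lymph nodes of C57BL6/J mice of WT genotype, and 9 libraries of polyadenylated RNA were read. In the IL-1b-treated group (3 libraries) the cells were kept in vitro for 20 h with recombinant interleukin-1 beta, an inflammatory cytokine, at 10 ng/mL. In the cultured group (3 libraries) they were kept for 20 h without it, and in the fresh group (3 libraries) they were used straight after isolation. The labels give no age, sex or medium, and do not say whether replicates came from separate animals or cultures, so that p-values may measure technical spread only.

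In the integrated stress response, kinases that sense amino acid shortage, unfolded protein, viral RNA or haem shortage phosphorylate the initiation factor eIF2 alpha, which lowers protein synthesis in general but raises translation of a few messengers with upstream open reading frames, Atf4 first among them. The ATF4 protein is a basic leucine zipper factor that switches on genes for amino acid uptake and synthesis, for restraint of mTORC1 and for removal of the phosphate from eIF2 alpha. In T cells the arm that senses amino acids is best known as a brake on proliferation when amino acids run out. Messenger levels show neither eIF2 alpha phosphorylation nor ATF4 protein, and neither was measured here.

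The DNA letters through which ATF4 is known to act are the C/EBP-ATF response element, searched as TGATGNAA on both strands in the RefSeq promoter windows of GRCm38.p6 (the same assembly as mm10), which run from 250 bases before to 50 bases after each gene's start. All 10 members matched, with 11 windows in all, since Atf5 has 2 starts. Of the 10 members, 4 held it (Asns, Atf3, Chac1 and Trib3), and so did 3.97% of all 32851 promoters. The cyclic AMP response element, TGACGTCA, was in the window of 1 member, Ppp1r15a, and in 1.79% of all promoters, and the endoplasmic reticulum stress element, searched on both strands too, was in none of the members and in 0.119% of promoters. The matches are shown 5′ to 3′ on the gene's own strand, with the element in capitals, because the holders of the first element were far apart in level: Asns, Atf3 and Chac1 were near 0 counts and Trib3 was not. A match is a description of the letters, not a site shown to be used.
Asns, chr6:7693214-7693243, minus strand, 23 to 16 bases before the start: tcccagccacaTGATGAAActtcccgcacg
Atf3, chr1:191183425-191183454, minus strand, 110 to 103 bases before the start: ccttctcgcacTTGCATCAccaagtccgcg
Chac1, chr2:119351038-119351067, plus strand, 193 to 186 bases before the start: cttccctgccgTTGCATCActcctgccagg
Trib3, chr2:152344028-152344057, minus strand, from base 15 of the transcript: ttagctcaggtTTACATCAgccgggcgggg
Ppp1r15a, chr7:45526262-45526291, minus strand, 12 to 5 bases before the start: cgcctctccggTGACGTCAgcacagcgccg

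In Asns the element lay on the gene's own strand, and in Atf3, Chac1 and Trib3 on the opposite strand, so that its reverse complement is what the capitals show. The element in Ppp1r15a reads the same on both strands.

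The 3 members with the widest differences between groups were Ddit4 and Ppp1r15a, lower in cultured than in fresh cells, and Trib3, higher. For each, 120 bases are shown that end just before the more upstream of its GENCODE and RefSeq starts, which is the GENCODE start for Ddit4, the RefSeq start for Trib3 and the same base in both for Ppp1r15a. Capitals again mark the cyclic AMP response element, and the Ddit4 and Trib3 stretches as printed hold none of the 3 elements. The C/EBP-ATF response element of Trib3 lies downstream of this stretch, between its RefSeq start and its GENCODE start. G and C make up 69.2% of the Ddit4 stretch, 60.0% of the Ppp1r15a stretch and 72.5% of the Trib3 stretch.
Ddit4, chr10:59951835-59951954, minus strand: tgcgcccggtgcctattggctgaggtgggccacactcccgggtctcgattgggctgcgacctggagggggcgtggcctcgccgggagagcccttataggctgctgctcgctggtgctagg
Ppp1r15a, chr7:45526269-45526388, minus strand: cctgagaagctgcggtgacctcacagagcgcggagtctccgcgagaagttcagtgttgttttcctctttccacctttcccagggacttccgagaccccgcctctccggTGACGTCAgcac
Trib3, chr2:152344061-152344180, minus strand: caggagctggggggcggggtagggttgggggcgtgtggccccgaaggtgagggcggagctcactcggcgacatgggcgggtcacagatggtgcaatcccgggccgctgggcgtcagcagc

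Library totals ranged from 13518814 to 23056686 counts, so that 3 counts in a library equal 0.130 to 0.222 CPM (counts scaled to a common library total). No library stood apart from its group by this measure: over the 13043 genes tested the root mean square difference of log2 CPM from the other replicates was 0.498 to 0.502 in IL-1b-treated libraries, 0.398 to 0.399 in cultured libraries and 0.399 to 0.415 in fresh libraries. The cell type label matched its markers. Cd4, the coreceptor of helper T cells, averaged 544.7 ± 12.1 CPM in IL-1b-treated libraries, 590.6 ± 18.7 CPM in cultured libraries and 889 ± 9.75 CPM in fresh libraries (SD, n = 3 each). Cd3e, a subunit of the T cell receptor complex, averaged 219 ± 8.29 CPM in IL-1b-treated libraries, 253 ± 7.58 CPM in cultured libraries and 397 ± 3.46 CPM in fresh libraries. Cd3d, Cd3g, Trac, Il7r, Ccr7, Lef1 and Tcf7 averaged between 273 and 1575 CPM in every group. B cell and myeloid markers were highest in fresh libraries: the 6 B cell markers summed to 2.88 to 4.95 CPM in IL-1b-treated libraries, 4.36 to 6.06 in cultured libraries and 53.7 to 69.6 in fresh libraries, and the 5 myeloid markers to 1.56 to 3.76 CPM in IL-1b-treated libraries, 1.499 to 2.37 in cultured libraries and 17.3 to 19.2 in fresh libraries.

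The messenger pool of the stress response genes was smaller after culture and differently composed. Summed over the 10 members, the TPM level (counts per transcript length, scaled to a common total) came to 172 ± 9.14 in IL-1b-treated cells, 186 ± 4.73 in cultured cells and 453 ± 14.5 in fresh cells (SD, n = 3 each). Atf4 made up 48.1% of that sum with IL-1b, 48.9% in cultured cells and 33.0% in fresh cells. Ppp1r15a and Ddit4 made up 10.9% and 5.70% of it in IL-1b-treated cells, 9.93% and 5.95% in cultured cells, and 27.3% and 23.5% in fresh cells. Trib3 made up 11.7% with IL-1b, 13.6% in cultured cells and 0.831% in fresh cells. TPM spreads a fixed total over all genes and so moves with the composition of the whole library.

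In TPM per group the order was Atf4, Ddit3, Trib3, Ppp1r15a and Ddit4 in both cultured groups, and Atf4, Ppp1r15a, Ddit4, Ddit3 and Trib3 in fresh cells. Libraries of Trib3 and Ppp1r15a overlapped in both cultured groups, and no other neighbours among these 5 overlapped in any group. Atf4 had a higher mean TPM than 89.8% of tested genes with IL-1b, 89.3% in cultured and 93.2% in fresh cells, so it was among the more abundant messengers throughout. Atf5 and Sesn2 followed at 1.03 to 3.22 TPM, and Asns, Atf3 and Chac1 averaged at most 0.363 TPM in each group.

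**Figure D1:**
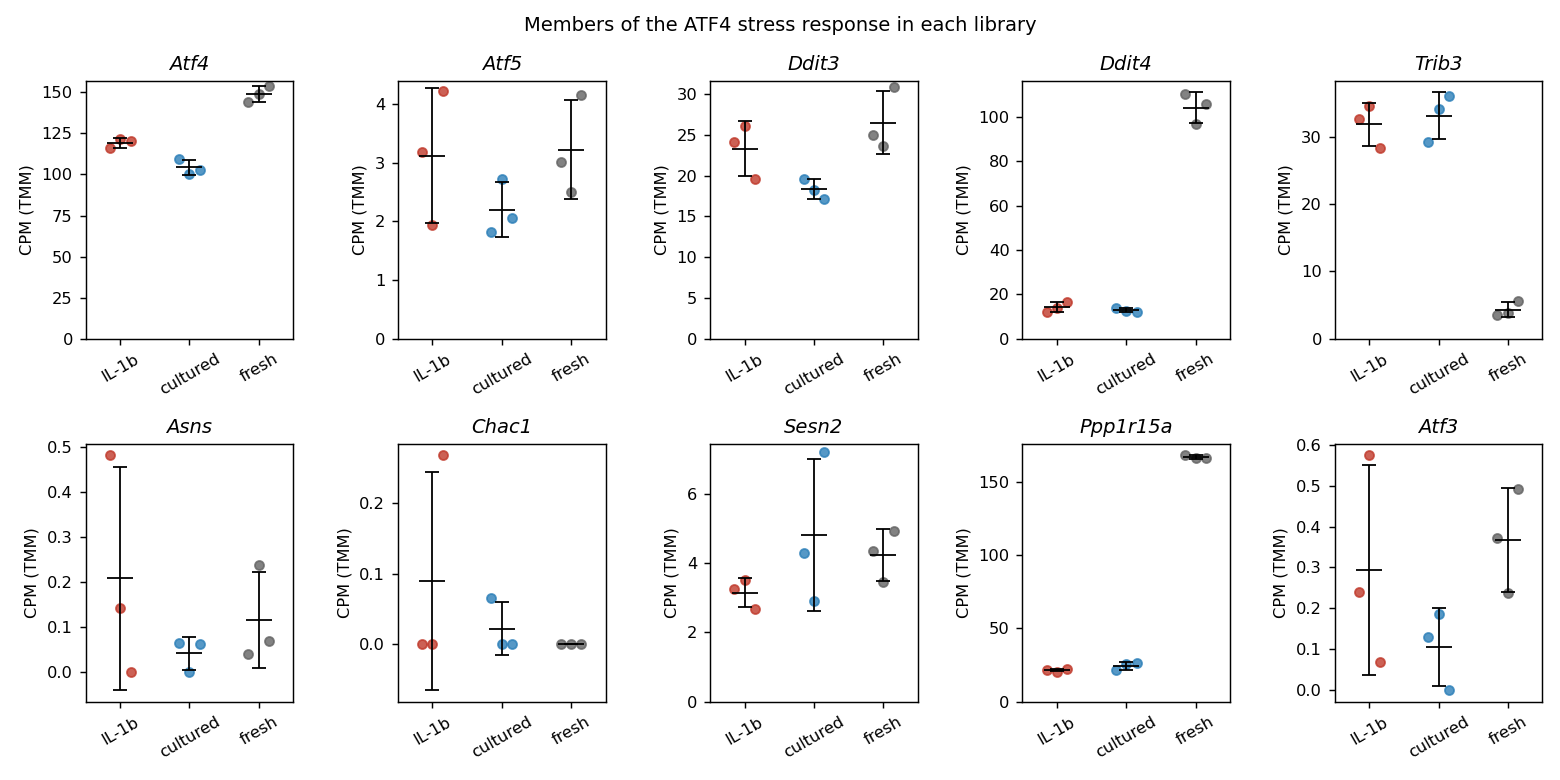
TMM-scaled CPM of the 10 members (1 panel each, linear axes of different height) in IL-1b-treated, cultured and fresh libraries; points are libraries, the long bar is the mean and the short bars ± 1 SD (n = 3). Ddit4 and Ppp1r15a stood far higher in fresh than in both cultured groups, Trib3 far lower, and Asns, Chac1 and Atf3 reached at most 0.574 CPM in any library.

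The comparison of cultured with fresh cells asks what 20 h in vitro did to these messengers. Levels below are CPM scaled by the TMM method, differences are log2 fold changes ± SE, and the adjusted p is that of the edgeR quasi-likelihood test, by Benjamini-Hochberg over all 13043 genes, with a call below 0.05. Of the 7 tested members, 1 rose (Trib3) and 4 fell (Ppp1r15a, Ddit4, Atf4 and Ddit3), where 29.4% of all tested genes were called higher and 28.9% lower (58.2% either way). Their median log2 fold change was -0.53, against 0.00 over all genes. The members that moved most did so in opposite directions: Ddit4, Ppp1r15a and Trib3 were called with at least a 4-fold change, as were 4.62% of all genes. In bulk RNA, fewer cells of a type and less RNA per cell cannot be told apart.

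Atf4 itself, the central transcription factor, had 110, 100.3 and 103 CPM in cultured libraries, against 144, 149 and 154 CPM in fresh ones. The groups did not overlap, as for 65.5% of tested genes, and the messenger was 1.43-fold lower in cultured cells (-0.51 ± 0.05, adjusted p = 2.45e-09). Ddit3, which encodes the transcription factor CHOP downstream of ATF4, had 19.6, 18.2 and 17.2 CPM in cultured libraries, against 25.02, 23.6 and 30.9 CPM in fresh ones. It was 1.44-fold lower without overlap, beside 1.43-fold for Atf4 (-0.53 ± 0.12, adjusted p = 0.000654). Atf5, a related leucine zipper factor also controlled at translation, had 1.83, 2.72 and 2.06 CPM in cultured libraries, against 3.02, 2.49 and 4.15 CPM in fresh ones. Its groups overlapped and it was not called (-0.54 ± 0.34, 95% interval -1.20 to 0.12, adjusted p = 0.179).

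Ppp1r15a encodes GADD34, the inducible partner of protein phosphatase 1 that takes the phosphate off eIF2 alpha and so ends the response. It had 21.4, 25.4 and 26.3 CPM in cultured libraries, against 168, 166 and 166 CPM in fresh ones. All 3 cultured libraries were far below all 3 fresh ones, 6.84-fold on the fitted scale (-2.77 ± 0.07, adjusted p = 1.73e-19), at rank 223 of 13043 from the lowest fold change. Trib3 encodes a pseudokinase that binds ATF4 and CHOP and is itself an ATF4 target in mouse and human cells. It had 29.2, 34.0 and 36.0 CPM in cultured libraries, against 3.60, 3.86 and 5.56 CPM in fresh ones. Cultured libraries were all higher, 7.80-fold (2.96 ± 0.14, adjusted p = 3.27e-14), which placed Trib3 at rank 85 from the highest fold change.

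The 2 members that restrain mTORC1, the kinase complex that couples nutrients to growth, differed. Ddit4, which encodes REDD1, had 13.8, 12.4 and 12.1 CPM in cultured libraries, against 110.2, 96.5 and 106 CPM in fresh ones. It was 8.15-fold lower in cultured cells with no overlap (-3.03 ± 0.10, adjusted p = 2.00e-17), at rank 182 from the lowest fold change. Sesn2, which encodes the leucine sensor sestrin 2, had 4.30, 2.91 and 7.22 CPM in cultured libraries, against 4.34, 3.44 and 4.93 CPM in fresh ones. The fresh values lay within the range of the cultured ones and Sesn2 was not called (0.19 ± 0.29, 95% interval -0.37 to 0.75, adjusted p = 0.602). Without cultured replicate 3, its highest library, the estimate was -0.23.

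**Figure D2:**
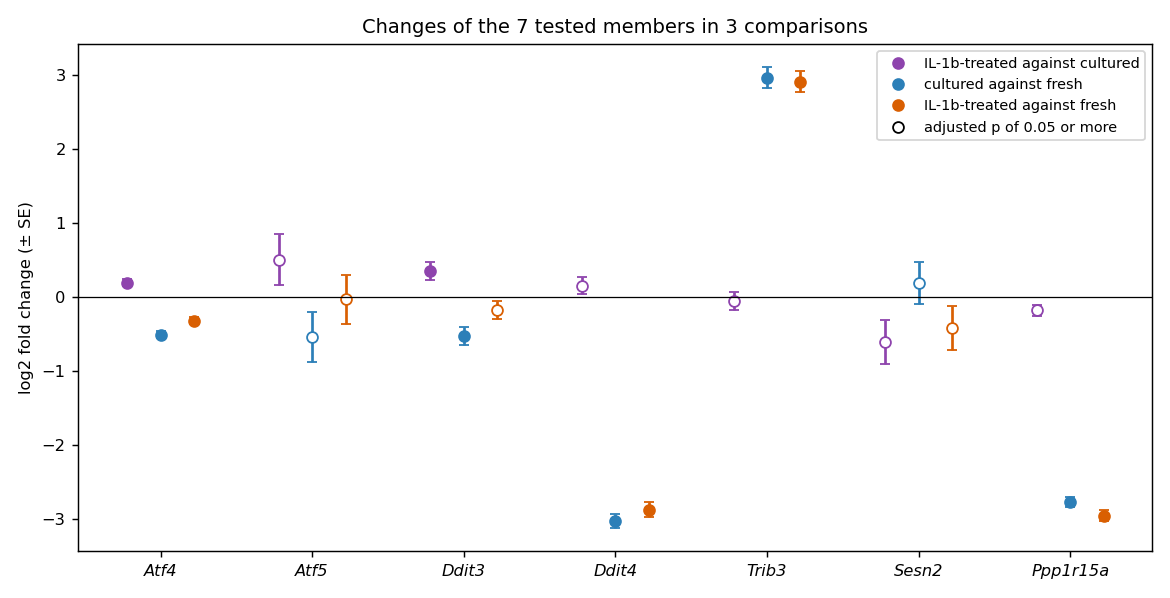
Log2 fold changes (± SE, edgeR) of the 7 tested members for IL-1b-treated against cultured, cultured against fresh and IL-1b-treated against fresh cells; filled points have an adjusted p below 0.05, open points do not. Ddit4 and Ppp1r15a lay between -3.03 and -2.77 and Trib3 between 2.91 and 2.96 in both comparisons with fresh cells, and the 7 members lay between -0.61 and 0.50 for IL-1b-treated against cultured cells.

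Other measures moved with these falls. The immediate early genes, which respond quickly to signals at the cell surface, summed to 774 to 821 CPM in IL-1b-treated libraries, 810 to 823 in cultured libraries and 1738 to 1843 in fresh libraries. Of 13 tested, 11 fell and 1 rose in cultured against fresh cells, with a median log2 fold change of -2.85. Jun, a subunit of AP-1, averaged 5.69 ± 0.71 CPM in cultured and 179 ± 9.84 CPM in fresh cells (-4.97 ± 0.10, adjusted p = 2.04e-21). Junb and Fos fell by 2.85 and 2.84, and Klf6 rose by 1.14 (adjusted p = 1.89e-20, 3.45e-19 and 1.53e-17). Markers of other cells fell as well: all 6 B cell markers, 4 of 5 myeloid markers (the fifth, Cd14, was below the filter and at 0 in both cultured groups) and 2 of 4 neutrophil markers were called lower, and Retnlg and S100a8 were at 0 in cultured libraries. In fresh libraries S100a8 averaged 1.08 ± 0.555 CPM. Cd14 and Retnlg averaged only 0.0198 ± 0.0343 and 0.142 ± 0.189 CPM there, so their values of 0 after culture do not show a fall. Cd8a and Cd8b1 were called higher, their sum reaching 47.7 to 59.7 CPM in cultured, against 23.0 to 26.5 CPM in fresh libraries. In IL-1b-treated against fresh cells the counts called lower were likewise 11 of 13 immediate early genes, 6 B cell, 4 myeloid and 2 neutrophil markers. The 3 NK cell markers summed to 1.94 to 4.83 CPM in IL-1b-treated, 2.37 to 4.27 in cultured and 2.08 to 3.31 in fresh libraries, and the 3 erythroid markers to 0 to 0.359 CPM in IL-1b-treated, 0.130 to 0.743 in cultured and 1.61 to 7.37 in fresh libraries. The part of these genes and of other cells in the falls of Ddit4 and Ppp1r15a was not tested.

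The 3 members below the filter are listed by their counts. Asns, the asparagine synthetase gene and a standard ATF4 target, had 8, 2 and 0 counts in IL-1b-treated, 1, 0 and 1 in cultured and 1, 4 and 1 in fresh libraries. Chac1, whose enzyme breaks down glutathione, had 0, 0 and 4 counts in IL-1b-treated, 1, 0 and 0 in cultured and 0, 0 and 0 in fresh libraries. The exact 95% upper limit for Chac1 in the fresh group was 0.0702 CPM, and 3 counts over that group equal 0.0571 CPM. Atf3, a stress-induced leucine zipper factor, had 4, 8 and 1 counts in IL-1b-treated, 2, 3 and 0 in cultured and 9, 4 and 7 in fresh libraries. At this depth none of the 3 was more than a trace, and with no filter none was called in any comparison (lowest adjusted p = 0.236, for Chac1 in IL-1b-treated against fresh cells). The ratio of summed counts per library size was 4.83 for Asns in IL-1b-treated over cultured cells (exact 95% interval 1.03 to 45.3) and 0.280 for Atf3 in cultured over fresh cells (0.0821 to 0.769). These intervals cover counting error only, not the spread between libraries: 8 of the 10 Asns counts with IL-1b came from replicate 1, and all 4 of Chac1 from replicate 3.

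Setting IL-1b-treated cells against culture alone asks what the cytokine added over the same 20 h. The log2 fold changes of the 7 tested members lay between -0.61 and 0.50. Of these, 2 were called higher (Atf4 and Ddit3) and 0 lower, where 15.6% of all tested genes were called higher and 13.3% lower (28.9% either way). By DESeq2 the same count was also 2 higher and 0 lower, and at an unadjusted p under 0.05 in edgeR 1 member, Ppp1r15a, was lower. No member was called with at least a 4-fold change, as 0.376% of all genes were. The median of the 7 was 0.15, against -0.01 over all genes.

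Atf4 had 116, 121 and 120.4 CPM in IL-1b-treated libraries, against 110, 100.3 and 103 CPM in cultured ones. The groups did not overlap, as for 40.3% of tested genes, and Atf4 was 1.14-fold higher with IL-1b (0.19 ± 0.05, adjusted p = 0.00354). In TPM the sign turned, with 82.8 ± 1.79 TPM in IL-1b-treated and 90.7 ± 4.26 TPM in cultured cells (-0.13 on the log2(TPM + 0.5) scale, limma adjusted p = 0.0602). The median of all genes was -0.28 on that scale. The transcript length used for Atf4 was 1525.7 to 1533.8 bases in IL-1b-treated and 1518.2 to 1532.5 bases in cultured libraries. Scaling by library size alone gave 0.08 (adjusted p = 0.238). Ddit3 had 24.2, 26.1 and 19.6 CPM in IL-1b-treated libraries, against 19.6, 18.2 and 17.2 CPM in cultured ones. Replicate 3 with IL-1b fell within the range of the cultured libraries, and the gene was 1.27-fold higher (0.35 ± 0.12, adjusted p = 0.0367). That call was lost in TPM (0.00, limma adjusted p = 0.989), with library size alone (adjusted p = 0.160), after removal of the GC and length trend (0.312), and without IL-1b-treated replicate 1 (0.0931) or 2 (0.164) or cultured replicate 2 (0.0819) or 3 (0.133).

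None of the 3 members with the widest differences after culture passed the test with IL-1b. Trib3 had 32.6, 34.5 and 28.3 CPM in IL-1b-treated libraries, against 29.2, 34.0 and 36.0 CPM in cultured ones, which overlapped (-0.06 ± 0.12, 95% interval -0.29 to 0.17, adjusted p = 0.771). Ddit4 had 12.02, 14.1 and 16.6 CPM in IL-1b-treated libraries, against 13.8, 12.4 and 12.1 CPM in cultured ones, which overlapped too (0.15 ± 0.11, 95% interval -0.07 to 0.37, adjusted p = 0.355). Ppp1r15a had 21.8, 20.4 and 22.2 CPM in IL-1b-treated libraries, against 21.4, 25.4 and 26.3 CPM in cultured ones. Its lowest cultured library lay inside the IL-1b-treated range, and it missed the threshold (-0.18 ± 0.08, 95% interval -0.34 to -0.03, adjusted p = 0.0893). It was called lower without cultured replicate 1 (-0.27, adjusted p = 0.0145) and with library size alone (-0.30, adjusted p = 0.00489).

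Sesn2 had 3.25, 3.52 and 2.68 CPM in IL-1b-treated libraries, against 4.30, 2.91 and 7.22 CPM in cultured ones. The groups overlapped (-0.61 ± 0.30, 95% interval -1.19 to -0.03, edgeR unadjusted p = 0.0507, adjusted p = 0.132). Leaving out 1 library at a time gave -0.87 to -0.19: without cultured replicate 2 the gene was called lower (-0.87, adjusted p = 0.0336), and without cultured replicate 3 the estimate was -0.19 (adjusted p = 0.729). Atf5 had 3.19, 1.94 and 4.23 CPM in IL-1b-treated libraries, against 1.83, 2.72 and 2.06 CPM in cultured ones, and was not called (0.50 ± 0.34, 95% interval -0.16 to 1.17, adjusted p = 0.303). Both messengers were scarce, at no more than 7.22 CPM in any library, and their intervals were wide.

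**Figure D3:**
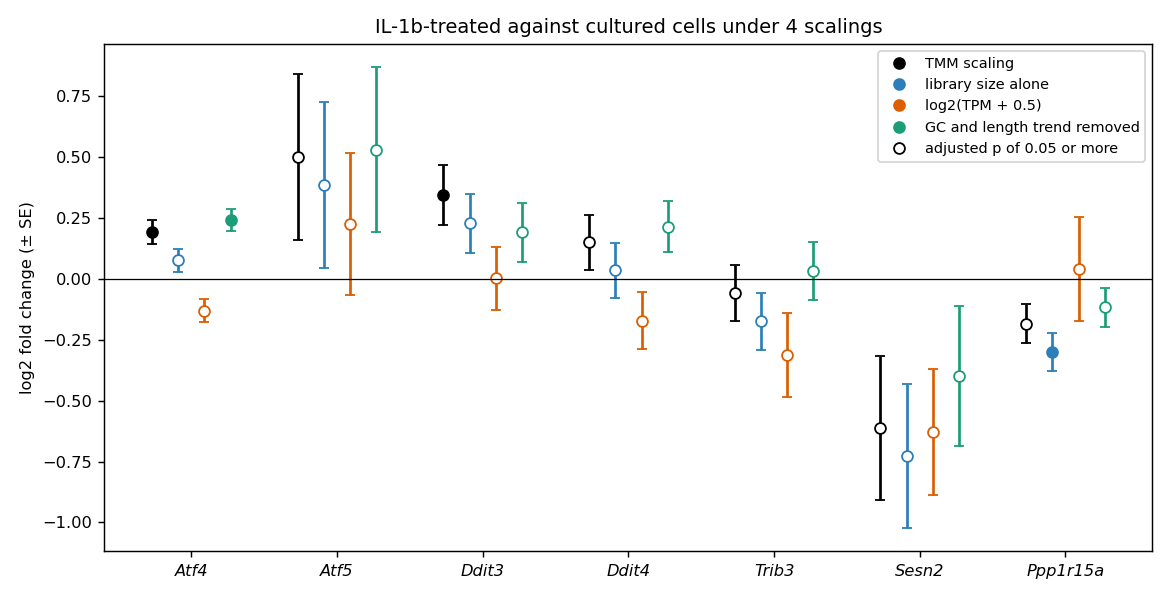
Log2 fold changes (± SE) of the 7 tested members for IL-1b-treated against cultured cells under TMM scaling, library size alone, log2(TPM + 0.5) and after removal of the GC and length trend; filled points have an adjusted p below 0.05. Atf4 was above 0 in count scalings and below it in TPM, and the median of all genes was itself -0.01 under TMM, -0.12 with library size alone and -0.28 in TPM.

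Directions in this comparison are therefore relative to the median gene, since the split of calls over all genes followed the scaling as well: 54.1% of calls were higher under TMM, 26.7% with library size alone, 6.07% in TPM and 70.1% with the trend removed. In cultured against fresh cells the share was 50.4% under TMM and 28.1% in TPM, and in IL-1b-treated against fresh cells 50.2% under TMM, 39.2% with library size alone and 17.8% in TPM.

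IL-1b-treated against fresh cells shares the fresh libraries with the first comparison and the IL-1b-treated ones with the second, so its values are given beside theirs and not as a further test of them. Of 7 members, 1 rose (Trib3) and 3 fell (Ppp1r15a, Ddit4 and Atf4), where 32.9% of all genes were called higher and 32.6% lower (65.5% either way). Trib3 was 7.49-fold higher (2.91 ± 0.14, adjusted p = 2.97e-14), Ppp1r15a 7.77-fold lower (-2.96 ± 0.07, adjusted p = 3.45e-20) and Ddit4 7.34-fold lower (-2.88 ± 0.10, adjusted p = 2.06e-17). None of these 3 overlapped with fresh cells, as for 68.1% of all genes, and a called change of at least 4-fold, which they all had, was found for 5.06%. Atf4 fell by 0.32 ± 0.05 (adjusted p = 2.25e-06), a call lost after removal of the GC and length trend (-0.08, adjusted p = 0.110). Ddit3 was not called (-0.18 ± 0.12, adjusted p = 0.186) but was called lower with library size alone (-0.35, adjusted p = 0.0122), in TPM (-0.80, adjusted p = 0.000394) and with the trend removed (-0.56, adjusted p = 0.000258). Atf5 (-0.04 ± 0.33, adjusted p = 0.929) and Sesn2 (-0.43 ± 0.30, adjusted p = 0.215) were not called. Over the 7 members the median was -0.32, against -0.01 over all genes.

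Some member values depend on how reads were assigned. The effective length of Ppp1r15a, the length its reads could come from given the isoforms RSEM credited, was 1611, 904 and 1301 bases in IL-1b-treated, 2047, 2011 and 1412 in cultured and 2021, 2080 and 2195 in fresh libraries, so its TPM did not follow its CPM: IL-1b-treated replicate 2 had the lowest CPM of its group and the highest TPM, 24.0. Ddit3 lies across from Mars on the other strand, which drew 7258 counts over the 9 libraries against 3370 for Ddit3, and Atf5 lies across from Nup62, with 7382 counts against 422. The libraries were made with a strand-marking kit, but the strand setting of the counting is not given in the sources used here. The values of Ddit3 and Atf5 are uncertain to that extent. Mars was at -0.63 ± 0.07 in cultured against fresh cells (adjusted p = 4.55e-08), beside -0.53 ± 0.12 for Ddit3. In IL-1b-treated against cultured cells Mars was at -0.18 (adjusted p = 0.0595) and Ddit3 at 0.35. Whether Mars reads entered the Ddit3 counts was not tested.

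The members lie at separate loci, given here in mm10 by GENCODE M21, all protein coding. Ddit3 (ENSMUSG00000025408) at chr10:127290774-127296288 and Ddit4 (ENSMUSG00000020108) at chr10:59949669-59951834 share a chromosome, as do Atf5 (ENSMUSG00000038539) at chr7:44812256-44816658 and Ppp1r15a (ENSMUSG00000040435) at chr7:45522916-45526268, and Trib3 (ENSMUSG00000032715) at chr2:152337422-152344032 and Chac1 (ENSMUSG00000027313) at chr2:119351229-119354381. Atf4 (ENSMUSG00000042406) lies at chr15:80255184-80257541, Asns (ENSMUSG00000029752) at chr6:7675169-7693254, Sesn2 (ENSMUSG00000028893) at chr4:132492032-132510501 and Atf3 (ENSMUSG00000026628) at chr1:191170296-191218039. Atf4, Ddit3 and Chac1 are read from the plus strand and the others from the minus strand.

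Likeness of pattern was measured as the root mean square difference between 2 genes' log2 CPM, each centred on its mean over the 9 libraries, so that 0 is identical; it is a description, with no test. Among the members the closest pair was Atf4 and Ddit3 at 0.150, followed by Ddit4 and Ppp1r15a at 0.216, and the farthest was Ddit4 and Trib3 at 2.76. Of 11061 other genes searched, the 5 nearest to Atf4 were Inafm2 (0.0478), Aes (0.0612), Thap1 (0.0621), Atic (0.0624) and Ifnar2 (0.0635). Atic, an enzyme of purine synthesis, averaged 98.1 ± 0.886 CPM in IL-1b-treated cells, 88.1 ± 5.37 in cultured cells and 119.97 ± 4.55 in fresh cells. Nearest to Ddit4 was Junb (0.131), with 56.7 ± 4.64 CPM in IL-1b-treated cells, 55.9 ± 4.15 in cultured cells and 402 ± 29.4 in fresh cells. The gene nearest to Ppp1r15a was H2-Q6 (0.0942), a class I histocompatibility gene whose reads are shared with close copies and whose counts are uncertain. Trib3 was nearest to Ifngr1 (0.226), which encodes a chain of the interferon gamma receptor and averaged 624 ± 4.67 CPM in IL-1b-treated cells, 530.2 ± 4.17 in cultured cells and 85.3 ± 2.74 in fresh cells. For Ddit3 the nearest was Psme2b (0.113), for Atf5 Rita1 (0.160) and for Sesn2 Kctd17 (0.231).

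The rest of the pathway was read through 11 lists written from general knowledge, with earlier results of these data known. Each is given by how many tested genes were called in each direction. Over all tested genes 29.4% were called higher and 28.9% lower in cultured against fresh cells, and 15.6% and 13.3% in IL-1b-treated against cultured cells, so a list whose shares lie near these does not stand apart. Calls also followed the scaling, and counts in TPM or after removal of the GC and length trend are given where they differ widely. In TPM 289 of 13043 genes were called higher and 4475 lower in IL-1b-treated against cultured cells, and 1872 and 4786 in cultured against fresh cells. With the trend removed the counts were 1691 and 721, and 3626 and 3414. A list's counts under these scalings are to be read beside those of all genes. Upstream of ATF4, 1 of 4 eIF2 alpha kinases was called in each of the first 2 comparisons, lower in both. In cultured against fresh cells it was Eif2ak2, which encodes the kinase PKR, at -0.49 ± 0.12 (adjusted p = 0.000936), and in IL-1b-treated against cultured cells it was Eif2ak4, which encodes the amino acid sensor GCN2, at -0.36 ± 0.13 (adjusted p = 0.0345). In TPM, 2 kinases were called lower and 0 higher in each of these comparisons. With the GC and length trend removed, Eif2ak1, which encodes the haem-regulated kinase, was called higher in both (0.31 in cultured against fresh and 0.22 in IL-1b-treated against cultured cells, adjusted p = 0.000275 and 0.0181), and the Eif2ak4 call was lost (-0.23, adjusted p = 0.213). Among 9 genes, those of subunits of eIF2 and its exchange factor eIF2B together with Eif2a, 6 rose and 1 fell (Eif2b2) in cultured against fresh cells. Eif2a, whose product eIF2A is a subunit of neither, was among those that rose there (0.50, adjusted p = 3.00e-06). It was also among those that rose with IL-1b against culture alone (0.44, adjusted p = 3.63e-05). The 3 eIF2 subunits had the smallest adjusted p: Eif2s2 rose by 0.65 ± 0.05, Eif2s1, the subunit that is phosphorylated, by 0.60 ± 0.05 and Eif2s3x by 0.39 ± 0.04 (adjusted p = 2.99e-10, 7.58e-10 and 1.68e-09). In TPM 4 of the 9 rose and 2 fell. In IL-1b-treated against cultured cells 6 of 9 rose and 0 fell, with the same 3 at 0.46, 0.43 and 0.27, but in TPM 0 rose and 1 fell. Of 4 phosphatase genes 1 rose and 1 fell in cultured against fresh cells, with 0 and 1 in TPM and 1 and 3 with the trend removed. Ppp1r15b, the partner subunit that acts without stress, averaged 111 ± 3.19 CPM in cultured cells and 182 ± 6.21 CPM in fresh ones (-0.72 ± 0.04, adjusted p = 2.51e-12), beside -2.77 ± 0.07 for Ppp1r15a. The catalytic gene Ppp1ca rose by 0.17 there, with the other sign in TPM (-0.10). With IL-1b against culture alone Ppp1cc rose by 0.12 and Ppp1r15b fell by 0.25 (adjusted p = 0.00773 and 0.000207), whereas in TPM 0 rose and 3 fell.

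Genes for ATF4's partner factors split: in cultured against fresh cells 2 of 6 tested rose and 3 fell, with 0 and 3 in TPM. Jun and Cebpb fell, Cebpb with 1.45 ± 0.583 CPM in cultured cells and 8.26 ± 0.251 CPM in fresh ones (-2.51 ± 0.37, adjusted p = 4.03e-06), and Batf fell by 0.73, while Nfe2l2, the oxidative stress factor NRF2, rose by 0.31 and Cebpg by 0.18 (adjusted p = 1.38e-06, 0.000147 and 0.0381), although Cebpg had the other sign in TPM (-0.25). In IL-1b-treated against cultured cells 0 rose and 1 fell, Cebpd, with 0.673 ± 0.292 CPM in IL-1b-treated cells against 1.71 ± 0.249 CPM in cultured ones (-1.34 ± 0.50, adjusted p = 0.0461). That call was lost with the trend removed (adjusted p = 0.0752) and in TPM (limma adjusted p = 0.0785).

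Amino acid transporters, among which ATF4 has several known targets, moved both ways. Of 10 tested, 3 rose and 7 fell in cultured against fresh cells. The cystine transporter gene Slc7a11 was the widest, with 74 counts over the 3 cultured libraries against 1 over the 3 fresh ones, a ratio of 82.8 per library size (exact 95% interval 14.4 to 3316, counting error only). With IL-1b it had 42, 57 and 33 counts, against 19, 24 and 31 in cultured libraries, and the ratio of the sums was 1.72 (1.29 to 2.32, counting error only), but the test over libraries did not call it (0.92 ± 0.45, adjusted p = 0.136). Slc38a2, the amino-acid-responsive SNAT2 gene, rose by 0.35 ± 0.03, and the glutamine transporter genes Slc1a5 and Slc38a1 fell by 0.48 ± 0.04 and 0.49 ± 0.04 (adjusted p = 1.78e-09, 7.28e-10 and 8.42e-10). In IL-1b-treated against cultured cells 5 of 10 transporters fell and 0 rose. Slc38a1 had the smallest adjusted p (-0.20, adjusted p = 0.00113), Slc7a5 and Slc7a1 were lower by more (-0.27 and -0.21), and after removal of the GC and length trend none was called in either direction.

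The 20 cytosolic aminoacyl-tRNA synthetases, which charge tRNAs and are common ATF4 targets, moved both ways: 9 rose and 7 fell in cultured against fresh cells, against 2 and 9 in TPM. Cars, Vars and Aars fell by 1.28, 1.02 and 0.90 (adjusted p = 1.23e-10, 2.33e-12 and 3.66e-09), and Farsb, Lars and Rars rose by 0.67, 0.55 and 0.42 (adjusted p = 1.93e-07, 4.45e-09 and 2.24e-06). With IL-1b against culture alone 10 rose and 2 fell, Rars (0.49) having the smallest adjusted p, and Vars and Yars (-0.29 and -0.30) being the 2 that fell, whereas in TPM 0 rose and 10 fell. Of 8 tested serine, proline and one-carbon genes, 1 rose and 6 fell in cultured against fresh cells, with 1 and 3 after removal of the trend. Mthfd2, the mitochondrial folate enzyme, averaged 25.4 ± 2.48 CPM in cultured cells and 53.1 ± 1.47 CPM in fresh ones (-1.07 ± 0.09, adjusted p = 2.78e-10), and Psph, the last step of serine synthesis, rose by 0.54 ± 0.11 (adjusted p = 0.000265). Psph was also the only gene of this list called with IL-1b against culture alone, at 0.56 ± 0.11 (adjusted p = 0.00032), and not in TPM (0.25, limma adjusted p = 0.116), where 4 genes fell.

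Of 11 tested among 20 other ATF4 targets, 6 rose and 1 fell in cultured against fresh cells, against 3 and 1 in TPM. Klhl24, Herpud1 and Map1lc3b, the last 2 of them genes of endoplasmic reticulum protein disposal and of autophagy, rose by 1.02 ± 0.04, 0.63 ± 0.07 and 0.61 ± 0.04 (adjusted p = 1.14e-15, 3.66e-08 and 2.22e-11), and Cebpb fell, as given above. Between IL-1b-treated and cultured cells 2 rose and 1 fell, Map1lc3b (0.21) having the smallest adjusted p, and in TPM 0 rose and 5 fell. Among 14 mTORC1 regulators, 5 rose and 6 fell in cultured against fresh cells, against 1 and 6 in TPM. Sesn1, a sestrin gene like Sesn2, averaged 414 ± 1.18 CPM in IL-1b-treated cells, 328 ± 2.87 in cultured cells and 120 ± 1.29 in fresh cells, and Sesn3 averaged 187 ± 4.28 CPM in IL-1b-treated cells, 228 ± 1.59 in cultured cells and 422 ± 11.4 in fresh cells. The 2 related genes went opposite ways, by 1.45 ± 0.03 and -0.89 ± 0.03 in cultured against fresh cells (adjusted p = 3.68e-20 and 3.38e-16), while Sesn2 itself was not called. Mtor fell by 0.63 and Rptor by 0.60 (adjusted p = 2.74e-08 and 6.98e-08). Between IL-1b-treated and cultured cells 2 of 14 rose and 5 fell. Sesn1 (0.34) and Sesn3 (-0.28) had the smallest adjusted p in each direction, while Castor2 (-0.33) and Tsc2 (-0.29) were lower by more than Sesn3. After removal of the GC and length trend 2 rose and 0 fell, and in TPM 0 rose and 8 fell. Immediate early genes, which had differed so widely after culture, gave 1 higher (Egr3, 1.61 ± 0.41) and 1 lower (Zfp36, -0.21 ± 0.05) of 13 in that comparison (adjusted p = 0.00444 and 0.0052), and in TPM 0 rose and 7 fell. Egr3 was scarce, at 0.658 ± 0.082 CPM in IL-1b-treated cells and, near the floor of 3 counts, 0.209 ± 0.068 CPM in cultured cells. It was not called in TPM (-0.01, limma adjusted p = 0.982). With the trend removed Egr3 stayed called (1.79, adjusted p = 0.00308) and the Zfp36 call was lost (-0.09, adjusted p = 0.261).

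The other arms of the unfolded protein response, which can also raise Ddit3, moved both ways as well: of 16 genes, 6 rose and 8 fell in cultured against fresh cells, against 2 and 9 in TPM. The chaperone gene Hspa5 fell by 0.65 ± 0.04 and Calr by 0.62 ± 0.03, while Xbp1 rose by 0.79 ± 0.07 and Pdia4 by 1.06 ± 0.04 (adjusted p = 4.38e-13, 8.21e-14, 1.87e-09 and 1.33e-15). With IL-1b against culture alone 8 rose and 2 fell. The smallest adjusted p were those of Pdia4, Hspa5 and Pdia6 at 0.32, 0.28 and 0.42 (adjusted p = 2.17e-06, 3.01e-06 and 1.36e-05), and Manf was at 0.35 (0.00137), whereas in TPM 0 rose and 4 fell. Cebpb, Wars and Jun each stand in 2 of these lists.

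**Figure D4:**
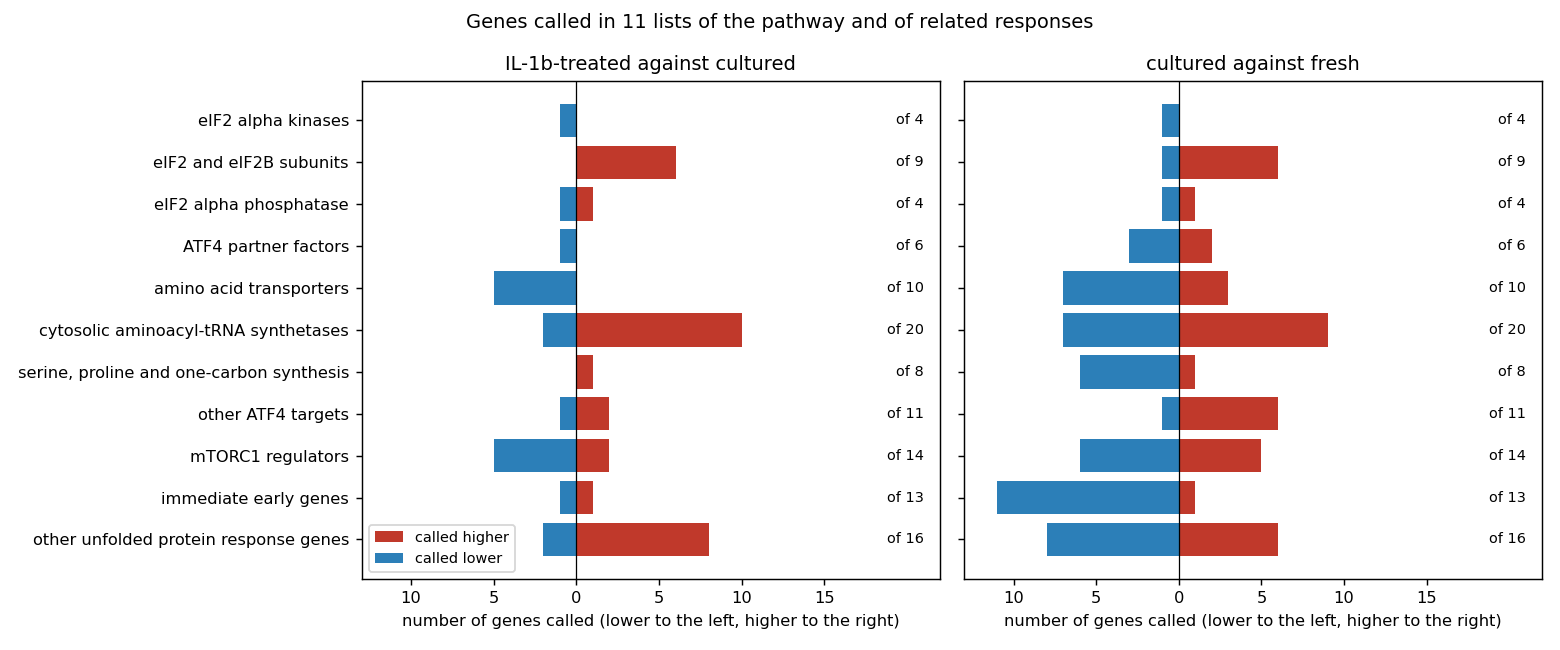
Number of genes called higher (right) and lower (left) at an adjusted p below 0.05 in 11 lists, for IL-1b-treated against cultured and for cultured against fresh cells, with the number tested at the right edge. In cultured against fresh cells immediate early genes were called lower in 11 of 13 cases, and most other lists held calls in both directions. In IL-1b-treated against cultured cells several lists held only higher or only lower calls.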

How the data were processed

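The 9 libraries were made with a strand-marking kit, per the labels' protocols. Reads were aligned with STAR and counted with RSEM on mm10, per the submitters' processing notes, while versions and the strand setting are not given in the sources used. The deposited values are, per the file headers, RSEM expected counts, in which reads that match several genes are divided among them. They were rounded to whole numbers. The authors also deposited RSEM's TPM, which corrects expected counts for effective length, and FPKM values that were not used.

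Of 55487 identifiers, 55141 (99.4%) had a GENCODE M21 symbol, and unmatched ones stayed in totals and tests. The tests used edgeR 4.0.16 in R 4.3.3 on the 13043 genes left by filterByExpr. TMM scaling was used, 1 quasi-likelihood model held all 9 libraries with no term but group, and p-values were adjusted by Benjamini-Hochberg and called below 0.05. Library totals of 13518814 to 23056686 set a floor of 0.130 to 0.222 CPM for 3 counts. The 95% intervals of log2 fold changes use a normal approximation with the SE drawn from the F statistic. They are therefore somewhat narrower than the quasi-likelihood test allows. The exact 95% intervals, Poisson for Chac1 and binomial for ratios of summed counts, cover counting error only.

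The members and lists were chosen with earlier results of these data known. All 10 members are named in each comparison, with the called genes of smallest adjusted p in each list (up to 3 in each direction), the gene of nearest pattern to each member, and the nearest 5 for Atf4. Marker genes at 0 counts, Eif2ak1, Castor2, Manf and Slc7a1 were named after their values were seen. Alternatives were RLE size factors, library size alone, no filter, at least 1 CPM in 3 libraries, DESeq2 1.42.0, limma 3.58.1 on log2(TPM + 0.5), a GC and length trend per library taken out (mgcv 1.9.3), a fit of only the 2 groups, the replicate block, a 0.01 threshold and leaving out each library. The scripts were tested on simulated data. Python 3.11.15 with pandas 2.3.3, numpy 2.4.6, scipy 1.17.1 and matplotlib 3.10.9 served for the tables and figures.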

Additional observations from a re-analysis of the deposited data

How the results depend on the processing

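Cultured against fresh cells kept its calls of Atf4, Ddit3, Ddit4, Trib3 and Ppp1r15a, and their directions, in all 19 alternatives, with log2 fold changes of -0.72 to -0.32, -0.80 to -0.41, -3.21 to -2.78, 2.60 to 3.26 and -2.83 to -2.56 in that order of genes. IL-1b-treated against fresh cells kept Ddit4, Trib3 and Ppp1r15a in all 19. In IL-1b-treated against cultured cells the count of 2 higher members became 0 with library size alone and 0 in TPM, and 1 after removal of the GC and length trend, 1 with the replicate block, 1 at a threshold of 0.01 and 1 to 2 when each library was left out. The count of 0 lower members became 1 with library size alone and 0 to 1 when each library was left out. Over all genes this comparison gave 2037 higher and 1731 lower, against 1191 and 3273 with library size alone, 289 and 4475 in TPM, 721 lower with the trend removed and 1132 lower at a threshold of 0.01. In TPM, cultured against fresh cells gave 1872 genes higher in place of 3829. IL-1b-treated against fresh cells gave 5 members lower in TPM in place of 3, and 1535 genes higher and 7107 lower in place of 4287 and 4252. Over its 19 alternatives the adjusted p in IL-1b-treated against cultured cells ran from 0.000455 to 0.238 for Atf4, 0.00795 to 0.989 for Ddit3, 0.00489 to 0.903 for Ppp1r15a and 0.0336 to 0.729 for Sesn2. In IL-1b-treated against fresh cells it ran from 4.32e-12 to 0.110 for Atf4 and 0.000258 to 0.697 for Ddit3. Signs turned for members with small differences. In IL-1b-treated against cultured cells TPM gave -0.13 for Atf4, -0.17 for Ddit4 and 0.040 for Ppp1r15a, and Trib3 was at 0.033 with the trend removed and at -0.14 to 0.023 when each library was left out, above 0 without replicate 3 of either group. Sesn2 in cultured against fresh cells was at -0.10 in TPM and -0.23 to 0.45 when each library was left out, below 0 without cultured replicate 3. In IL-1b-treated against fresh cells Atf5 was at 0.27 and Sesn2 at 0.17 with the trend removed, and Atf5 at -0.31 to 0.21 when each library was left out, above 0 without fresh replicate 3 or IL-1b-treated replicate 2. TPM and library size carry the shift of the median gene given with the scalings. Ppp1r15a moved against that shift in TPM, and its effective length differed between libraries, as given above. The cause of this and of the other changes was not tested. The replicate numbers showed no sign of pairing: deviations from group means correlated with r from -0.0222 to 0.0191 over 9 same-numbered pairs and -0.0511 to 0.0331 over 18 others. Counting noise can hide a pairing in such values, so whether the samples were paired stays unknown. With the replicate as a block, Ddit3 in IL-1b-treated against cultured cells had an adjusted p of 0.0529, and no other member's call changed. At this depth Asns, Chac1 and Atf3 stayed below the filter. The intervals of Atf5 and Sesn2 were wide, and what set their width was not tested. Replicates of both differed: Sesn2 had 66, 47 and 116 counts in cultured libraries, and Atf5 53, 27 and 63 in IL-1b-treated ones.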
